A study of Mus musculus with 8 samples.

Results

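Respiratory complex I, the NADH dehydrogenase of the inner mitochondrial membrane, was followed through the transcripts of its nuclear-encoded subunits in ischemic leg muscle of diabetic mice with and without praliciguat. The members were chosen by symbol: Nduf, then a, b, c, s or v, then digits, plus Ndufab1. Assembly factors (Ndufaf genes) and Ndufa4l2 were left out, and 37 of the 24848 genes in the tables fitted the rule. All 37 passed the filter on low counts, as 37 of 13569 genes tested. The rule used names only and no measured value, but members, gene lists and tests were chosen with earlier results of these data known.

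The RNA came from tibialis anterior, a muscle of the shin, of male Leprdb/db mice, which are obese and diabetic for want of leptin receptor signalling. All 8 libraries came from animals with surgically induced hind limb ischemia, and muscle was taken 28 days after surgery. The placebo group (4 libraries) ate control chow without drug. The praliciguat group (4 libraries) ate chow with 75 ppm of praliciguat, a stimulator of soluble guanylate cyclase, for 31 days from day -3, a content meant to give the peak plasma level of 10 mg/kg/day given by mouth. The mutation and the surgery were shared by both groups, and no library from unoperated muscle or from lean mice was used here. Whether the libraries stand for 8 different mice is not stated in the labels, and p-values then measure spread among libraries, which may in part be technical.

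Complex I takes electrons from NADH and passes them through a flavin and a chain of iron-sulfur clusters to ubiquinone, and couples this to pumping protons out of the matrix. It has a peripheral arm in the matrix, made of an NADH-binding N module and a quinone-binding Q module, and a membrane arm that holds the proton pumps. The catalytic core of the peripheral arm is nuclear-encoded, the pump core of the membrane arm is encoded by mitochondrial DNA, and many accessory subunits surround both. Skeletal muscle fibres, above all the oxidative ones, carry much of it. The mitochondrially encoded subunits and Ndufb1 were not analysed here.

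Total expected counts, RSEM's estimated reads per gene summed over a library, ranged from 21099764 to 31896205. Markers of the labelled tissue were abundant: the summed level of 8 skeletal muscle fibre genes was 130663 to 160314 CPM (counts scaled to library size, with library sizes adjusted by the trimmed mean of M values) in placebo and 131687 to 180903 CPM with praliciguat. Numbers in the sample titles fall into a lower run (3892 to 3897) and an upper run (3924 to 3927), with 2 libraries of each group in each run (replicates 1 and 2 lower, 3 and 4 upper). The labels do not say what the numbers mean.

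The promoters of the members are shown first, and any tie between their letters and the levels described further on was not tested. RefSeq promoter windows on GRCm38.p6, each 250 bases before and 50 after a start, were matched by symbol for 33 of the 37 members (35 windows). Both strands were searched for letters bound by factors known for genes of oxidative phosphorylation. The letters GCGCA, any base and GCGC in a row, known for nuclear respiratory factor NRF1, stood in windows of 7 of the 33 members (21.2%), in 11% of 10550 tested genes with a window and in 4.6% of all 32851 windows. The letters AAGATGGC, of YY1, stood in 7 of the 33 (21.2%), in 5.08% of the tested genes and in 2.75% of all windows. All 7 of these matches lay after the start, inside the transcript, on the gene's own strand, and began at bases 23 to 39. The half-site AAGGTCA of estrogen-related receptors stood in 3 (9.09%), against 3.96% of the tested genes and 4.72% of all windows. The letters CCGGAAGT, of ETS factors such as GABP, stood in 1 (3.03%), against 8.61% and 3.89%. A match is a description of letters and not evidence of binding, and none of the 4 strings of letters is contained in another.

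The stretches below, each on the gene's own strand and ending at or before the start, show members that hold the NRF1 letters. Capitals mark the match, as read on either strand.
Ndufa11, chr17:56717677-56717736: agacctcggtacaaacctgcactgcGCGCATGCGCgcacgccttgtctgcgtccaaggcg
Ndufa5, chr6:24527691-24527741: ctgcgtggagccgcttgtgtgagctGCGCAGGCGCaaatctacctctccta
Ndufa8, chr2:36049339-36049393: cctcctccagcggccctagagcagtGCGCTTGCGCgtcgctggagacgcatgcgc
Ndufs6, chr13:73328483-73328523: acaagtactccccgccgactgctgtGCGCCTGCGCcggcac
Ndufb4, chr16:37654413-37654472: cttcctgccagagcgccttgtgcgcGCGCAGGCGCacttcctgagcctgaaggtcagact
Ndufa11 lies on the plus strand and the other 4 genes on the minus strand. In Ndufa11 the match reads the same on both strands. The Ndufb4 window held the NRF1 letters 3 times and, between 2 of these, the receptor half-site, whose letters stand uncapitalised near the end of the stretch shown.

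Levels were compared between genes in TPM, a transcript share that divides by transcript length. The 37 members together made up 2.81 ± 0.132% of all TPM in placebo and 2.63 ± 0.117% with praliciguat (SD, n = 4 each). Leaving Ndufs5 aside, the other 36 members had mean levels over the 8 libraries from 95.3 to 2602 TPM with a median of 629 TPM, a level higher than 98.6% of tested genes. Of these 36, 25 lay between 300 and 1100 TPM. The order of the members was nearly the same in both groups (Spearman's rho of 0.997 between the group means over 37 genes, which share libraries and transcript lengths).

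**Figure D1:**
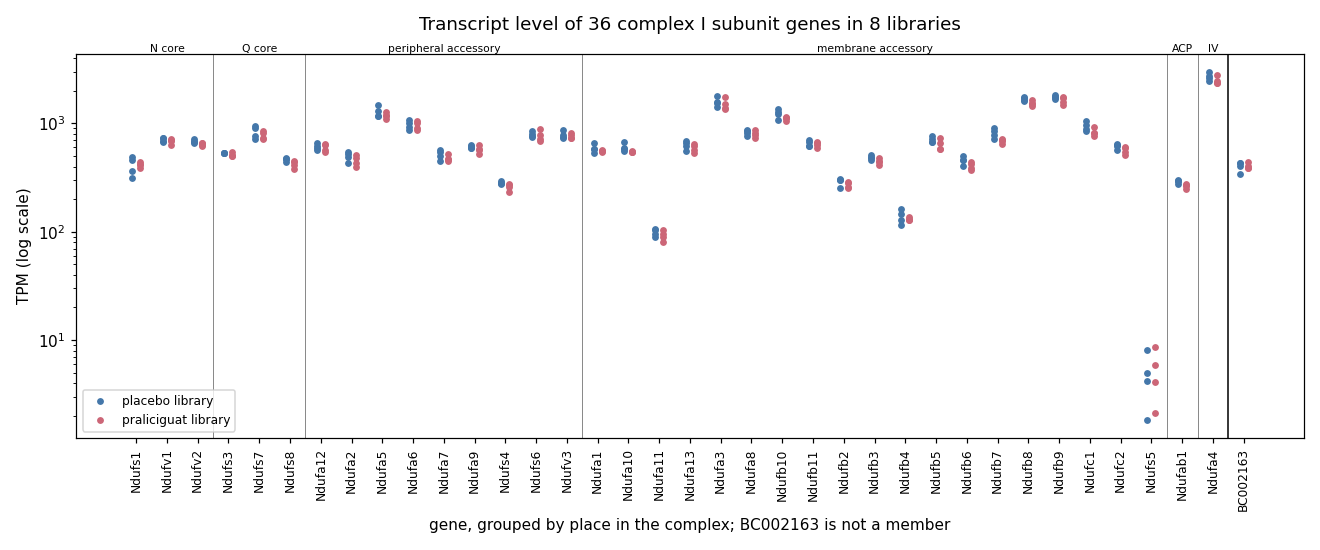
Transcript level (TPM, log axis) of 36 complex I subunit genes in each of the 8 libraries, with blue points for placebo and red points for praliciguat, grouped by place in the complex; BC002163, right of the black line, is not a member. Most members sit in a band around the median of 629 TPM in both groups, Ndufa4 tops it at a mean of 2602 TPM, and Ndufs5 stands apart near 5 TPM while BC002163 sits inside the band.

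The highest level belonged to Ndufa4, at 2711 ± 224 TPM in placebo and 2493 ± 196 TPM with praliciguat (SD, n = 4). Its product carries a complex I name but is now known as a subunit of cytochrome c oxidase, complex IV. Ndufb9 and Ndufb8, accessory subunits of the membrane arm, followed with means of 1692 and 1605 TPM over all libraries. Their ranges overlapped (Ndufb9 at 1484 to 1819 TPM, Ndufb8 at 1445 to 1742 TPM), so the order of these neighbours is not resolved. At the low end stood Ndufa11 and Ndufb4, accessory subunits of the membrane arm, with means of 95.3 and 134 TPM. Ndufa11 was low per length but not per read: its mean in placebo was 136 CPM, near the 129 CPM of Ndufa12, over an effective length of 2481 bases against 381 bases. Ndufb4 was low on both scales, at 21.0 ± 3.68 (placebo) and 20.5 ± 1.44 CPM (praliciguat; SD, n = 4). Transcript models in GENCODE hold a copy of 390 bases of Ndufb4, named Ndufb4c, without a mismatch; the part of this copy in the Ndufb4 level was not tested.

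The levels of core and accessory subunits overlapped. The 3 core subunits of the N module, Ndufv1 (which binds the flavin and NADH), Ndufv2 and Ndufs1 (which carry iron-sulfur clusters), had means from 412 to 696 TPM. In the Q module core, Ndufs7, near the quinone site, had a mean of 807 TPM, Ndufs3 of 525 TPM and Ndufs8, an iron-sulfur protein, of 442 TPM. Accessory subunits of the peripheral arm spanned 273 to 1233 TPM (median 606, 9 genes) and those of the membrane arm 95.3 to 1692 TPM (median 629, 18 genes without Ndufs5). Ndufab1, the mitochondrial acyl carrier protein that sits in both arms, was at 291 ± 9.44 TPM in placebo and 264 ± 13.2 TPM with praliciguat (SD, n = 4).

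Ndufs5, an accessory subunit of the membrane arm on the intermembrane side, had only 4.76 ± 2.57 TPM in placebo and 5.19 ± 2.76 TPM with praliciguat (SD, n = 4). Its expected counts ran from 10.1 to 52.0 per library and were not whole numbers in any of the 8 libraries, whereas the other 36 members had whole counts in all of them (tolerance 0.001). Counts that are not whole arise where RSEM divides a read between genes. A second row of the tables, BC002163, which RefSeq lists as the transcribed pseudogene Ndufs5-ps, was at 403 ± 44.3 TPM in placebo and 408.5 ± 25.03 TPM with praliciguat (SD, n = 4). In GENCODE's transcripts, Ndufs5 (chromosome 4, 123712710 to 123718186 on GRCm38) and BC002163 differed at 2 of 319 aligned bases, an identity of 99.4%.

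Those differences, counted from 1 at the first coding base of Ndufs5, are T81C and A105G, with the Ndufs5 base first. The coding sequence of Ndufs5 has 321 bases, and sequence outside the 319 aligned bases was not compared. The stretch from base 66 to base 120 of the coding sequence is shown for both, with the differing bases in capitals. It shows how little of the aligned sequence tells the pair apart.
Ndufs5: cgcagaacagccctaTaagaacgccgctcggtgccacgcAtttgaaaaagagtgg
BC002163: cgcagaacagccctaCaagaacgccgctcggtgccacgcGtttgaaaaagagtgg
Ndufs5 received between 0.465% and 2.14% of the summed counts of the pair. The sum of both rows was 407 ± 45.4 TPM in placebo and 414 ± 23.7 TPM with praliciguat (SD, n = 4), within the range of the other members. Fitted as a single gene, a choice made after seeing the data, the pair had a log2 fold change of 0.06 ± 0.11 SE (edgeR adjusted p = 0.985). The files do not settle which locus the reads came from, so the level of Ndufs5 alone is uncertain.

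Praliciguat was then compared with placebo, to ask whether transcripts of complex I differed with the drug. No complex I subunit was called higher or lower. Log2 fold changes of the 37 members ran from -0.21 for Ndufb7 to 0.18 for Ndufs5, with a median of -0.063, against 0.020 over all genes tested. In 30 of the 37 the fold change was below 0, against 44.8% of all genes tested. At an adjusted p under 0.05 edgeR's quasi-likelihood test called 0 of the 37 (0.0% of all genes, that is 0 of 13569), with a smallest adjusted p of 0.946 among the members. At an unadjusted p under 0.05 there were 0 members, against 5.73% of all genes (3.78% lower and 1.95% higher). DESeq2 called 0 members, against 0.951% of all genes (0.84% lower and 0.111% higher). In 0 of the 37 did the 4 praliciguat libraries lie wholly outside the range of the 4 placebo libraries, against 3.86% of all genes (2.54% lower and 1.32% higher).

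Without Ndufs5, the 95% intervals of all 36 members lay between -0.451 and 0.409 on the log2 scale, inside a change of 1.41-fold in either direction. Intervals that narrow, within 0.5 of 0, were found for 49.0% of all genes tested. Replicates scattered by a median coefficient of variation of 9.49% within groups in these 36 members, each with at least 491 counts in every library, against 15.6% over all genes. Of the 5576 tested genes at or above the lowest mean CPM of these 36, 4188 had intervals within 0.5 of 0. Their median coefficient of variation was 11.2%. The interval of Ndufs5, from -0.918 to 1.27, is too wide to bound it.

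**Figure D2:**
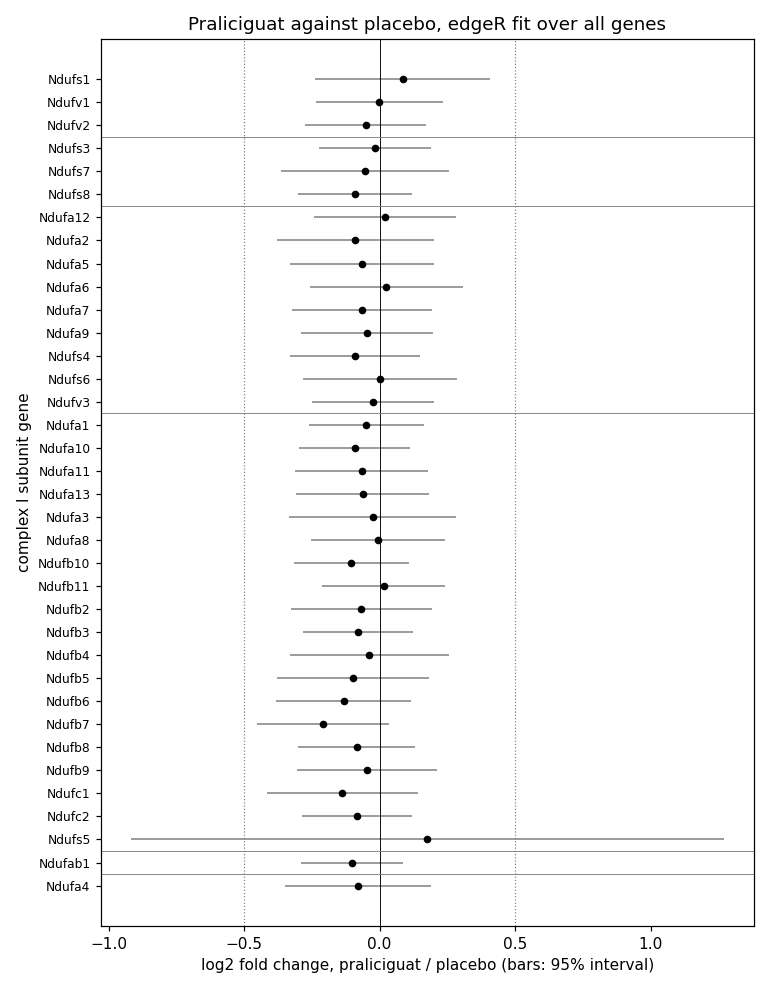
Log2 fold change of praliciguat over placebo for 36 genes (points) with 95% intervals (bars) from the fit over all genes, in the order N module core, Q module core, peripheral accessory, membrane accessory, Ndufab1 and Ndufa4; dotted lines mark 0.5 either way. Each interval crosses 0, and that of Ndufs5 alone reaches past the dotted lines.

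Among the core subunits of the N module, Ndufs1 varied most between libraries. It was at 442, 544, 668 and 633 CPM in placebo replicates 1 to 4 and at 661, 638, 530.1 and 597 CPM with praliciguat. The praliciguat libraries lay inside the placebo range, which placebo replicate 1 stretched downward. Its log2 fold change was 0.09 ± 0.14 SE, the largest above 0 after Ndufs5, with 0.40 in the lower title run alone and -0.21 in the upper. Ndufv1 was at 538, 570, 559 and 576 CPM in placebo and 592, 618, 478 and 555 CPM with praliciguat. Its group means were both 561 CPM, and the drug group spread wider than placebo on either side (SD 60.8 against 16.8). Ndufv2 was at 685 ± 26.0 TPM in placebo and 642 ± 20.4 TPM with praliciguat (SD, n = 4), at a log2 fold change of -0.051 ± 0.10 SE in counts.

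In the Q module core, Ndufs3 was at 226 ± 8.01 against 224 ± 19.2 CPM, and Ndufs7 at 268 ± 42.8 against 258 ± 29.5 CPM (SD, n = 4). Ndufs8 was at 167, 169.8, 156 and 152 CPM in placebo and 140.2, 164, 141 and 161 CPM with praliciguat, which overlapped (log2 fold change -0.090 ± 0.093 SE, edgeR adjusted p = 0.984). Over the 7 core subunits 5 had a fold change below 0, with a median of -0.017.

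The 9 accessory subunits of the peripheral arm had log2 fold changes from -0.090 to 0.025, 6 of them below 0. Ndufa6, which anchors an acyl carrier protein, was at 205 ± 23.4 (placebo) and 208 ± 27.4 CPM (praliciguat), and Ndufa12 at 129 ± 11.6 and 131 ± 16.9 CPM (SD, n = 4). Ndufs4, whose loss in mice and people causes a Leigh-like encephalopathy, was at 215 ± 11.0 and 202 ± 23.9 CPM.

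In the membrane arm 17 of 19 accessory subunits had a fold change below 0, with a median of -0.068. Ndufb7, on the intermembrane face of the arm, had the lowest p of all members. It was at 181, 175, 147 and 141 CPM in placebo and 134, 149, 131 and 144 CPM with praliciguat. The groups overlapped, since praliciguat replicates 2 and 4 lay above the lowest placebo library. Its log2 fold change was -0.21 ± 0.11 SE, that is 13.5% lower (edgeR adjusted p = 0.946). Within the lower run it was -0.33 and within the upper run -0.070. Ndufb6 was at 122 ± 12.998 against 111 ± 10.8 CPM and Ndufb10 at 311 ± 27.7 against 289 ± 8.94 CPM (SD, n = 4). Among the other members, Ndufb8 and Ndufb9 had log2 fold changes of -0.084 and -0.046. Ndufb11, an X-linked member, was at 244 ± 21.4 and 247 ± 19.5 CPM.

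Ndufab1, the acyl carrier protein, was at 85.2, 90.6, 87.5 and 83.3 CPM in placebo and 82.2, 88.5, 77.0 and 75.4 CPM with praliciguat. These ranges overlapped, at a log2 fold change of -0.10 ± 0.084 SE (edgeR adjusted p = 0.984). Ndufa4 had -0.079 ± 0.12 SE. Its paralog Ndufa4l2, a target of hypoxia-inducible factor outside the rule, had 11.2 ± 2.07 CPM under placebo chow and 9.02 ± 1.95 CPM under the drug (SD, n = 4), with an edgeR adjusted p of 0.976 for a log2 fold change of -0.31 ± 0.19 SE.

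The small shift below 0 depended on which libraries were compared. With one library left out, the median log2 fold change ranged from -0.095 to -0.013. It was -0.014 without placebo replicate 1, -0.027 without placebo replicate 2, -0.095 without placebo replicate 3, and leaving out praliciguat replicate 3 gave -0.013. When both upper-run libraries of the drug group (replicates 3 and 4) were left out, 15 of the 37 members had a fold change below 0 and the median was 0.024; in that fit group and run are partly confounded. With library size alone, without further scaling, 35 of the 37 were below 0, as they were on the TPM scale. A change of scaling moves all genes, and the share of all genes below 0 in these settings is not given here. Over the 23 settings the median of all genes ranged from -0.032 to 0.024, against 0.020 in the main fit. Within the lower run 24 of the 37 members were below 0, against 6967 of the 13569 genes tested, and within the upper run 27, against 6565. Opposite signs in the runs were found in 21 of the 37, against 8050 of the 13569 genes. In 15 of the 37 the difference was below 0 in both runs, against 2741 of the 13569 genes.

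**Figure D3:**
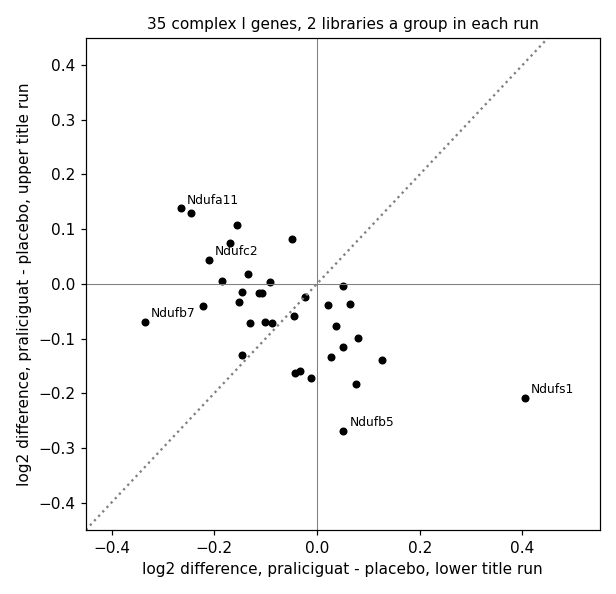
Difference in mean log2 CPM, praliciguat minus placebo, within the lower run of title numbers (x axis) and within the upper run (y axis), for 35 genes without Ndufs5, 2 libraries a group in each run; the dotted line marks equal differences. Of all 37 genes 21 had opposite signs in the runs, against 8050 of the 13569 genes tested. The points run off the dotted line, with Ndufs1 at 0.40 and -0.21 and Ndufb7 at -0.33 and -0.070.

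The members differed more between the runs than between the groups. This comparison was chosen after seeing the data. In a fit with group and run, 35 of 37 members were lower in the upper run, with a median log2 difference of -0.17, against 46.8% of all genes and a median of 0.018. In 13 of the 37 the 4 upper-run libraries lay below all 4 lower-run libraries, against 3.35% of all genes, and in 0 above them, against 3.07%. At an unadjusted p under 0.05 there were 12 members lower, against 5.71% of all genes. In the other direction there was 1 member, Ndufs5, against 1170 of the 13569 genes. At an adjusted p under 0.05 edgeR called 0 members and 0 genes in all (0.0%), with a smallest adjusted p of 0.269 among the members. The members of complexes II to V had 35 of 41 lower in the upper run (median -0.097), 4 of them without overlap.

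Ndufa6 showed the run difference most clearly by p. It was at 228, 220.3, 237 and 227 CPM in the lower run (placebo replicates 1 and 2, praliciguat replicates 1 and 2) and at 177, 194, 183 and 187 CPM in the upper run (replicates 3 and 4 in the same order). The runs did not overlap (log2 difference -0.30, edgeR adjusted p = 0.269), while placebo and praliciguat libraries lay side by side within each. Ndufs6, at 153 to 174 against 122 to 138 CPM, Ndufa12, Ndufa3, Ndufa8, Ndufa5, Ndufb4, Ndufv3 and Ndufb9 showed the same order and no overlap. Ndufa1, Ndufs4, Ndufv2 and Ndufs3 did too, at an unadjusted p above 0.05. Ndufs1 went the other way, with a log2 difference of 0.098.

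By library, the median deviation of the 36 members from their own means was 0.13, 0.11, 0.028 and 0.11 in the lower-run libraries (placebo replicates 1 and 2, then praliciguat replicates 1 and 2). It was -0.080, -0.032, -0.17 and -0.059 in the upper-run libraries in the same order. Praliciguat replicate 3 held the lowest value of 20 of the 36 members. The same count over all genes is not given here, and the median deviation of all genes in that library was 0.0040. That library also had the highest sums of immune markers (276 CPM, against 28.9 to 105 CPM in the other 7), of fibroblast markers (5798 CPM, against 730.2 to 2713 CPM) and of adipocyte markers (1834 CPM, against 491 to 1592 CPM). Their part in the result was not tested. In placebo, over the 36 members, Spearman's rho between effective length and the difference of lower minus upper run was -0.587, and over all 13569 tested genes -0.248. In praliciguat these values were -0.114 and 0.131. The longest members differed among themselves: in placebo the difference was -0.41 for Ndufs1 and 0.27 for Ndufa11. Genes in these correlations share libraries and depth, and the part of transcript length in the result was not tested.

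**Figure D4:**
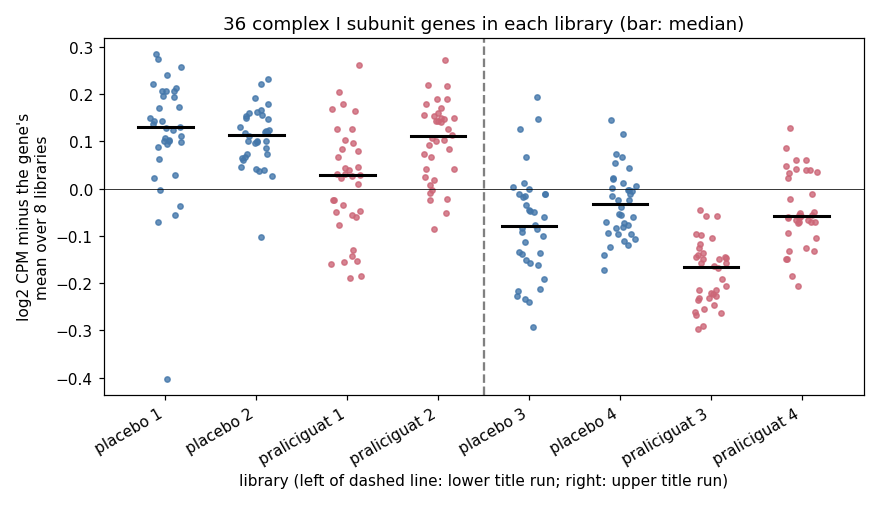
Log2 CPM of each of 36 complex I genes minus its own mean over the 8 libraries, by library, with placebo in blue, praliciguat in red, black bars for medians and a dashed line between the lower and the upper run of title numbers. The medians of the 4 lower-run libraries lie between 0.028 and 0.13 and those of the 4 upper-run libraries between -0.17 and -0.032, with both groups on either side.

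Other genes of the pathway were read in the same fit. Of 22 complex I assembly factors, which build the complex and are not part of it, 12 had a fold change below 0 (median -0.012), and 0 passed at an unadjusted p under 0.05. Acad9, an assembly factor related to acyl-CoA dehydrogenases, was at 43.4 ± 1.89 against 48.1 ± 3.89 CPM and Dmac2 at 46.6 ± 3.01 against 41.1 ± 9.07 CPM (SD, n = 4; edgeR adjusted p = 0.965 and 0.984). In complexes II to V 31 of 41 genes were below 0, with a median of -0.049. Of these 41, 1 was lower at an unadjusted p under 0.05 and 0 were higher, against 3.78% and 1.95% of all genes. That gene, Atp5l, subunit g of ATP synthase, had 20.3 ± 1.87 CPM under placebo chow and 17.1 ± 1.75 CPM under the drug. Its log2 fold change was -0.25 ± 0.11 SE, with an edgeR adjusted p of 0.859.

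The named genes of the other complexes did not pass. Sdhc and Sdha of complex II had log2 fold changes of -0.14 and 0.076, and Uqcrq and Cyc1 of complex III of -0.16 and -0.096. Cox7a2 and Cox5a of complex IV had -0.15 and -0.12. The supercomplex factor Cox7a2l had -0.052 ± 0.084 SE.

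Regulators of mitochondrial biogenesis had 10 of 16 genes below 0 (median -0.015), with 0 at an unadjusted p under 0.05. Ppargc1a, the coactivator PGC-1α, was at 64.7 ± 20.8 against 52.3 ± 18.7 CPM (SD, n = 4). The log2 fold change was -0.31 ± 0.28 SE (edgeR adjusted p = 0.984), with 0.36 within the lower run and -1.004 within the upper run. Ppara, a nuclear receptor of fatty acid metabolism, had -0.29 ± 0.24 SE. Esrra, the estrogen-related receptor alpha, had -0.023, and Tfam, which packages and transcribes mitochondrial DNA, -0.0079. Among 17 genes of mitochondrial mass and matrix enzymes 7 were below 0 (median 0.032), again with 0 at an unadjusted p under 0.05. Cs, citrate synthase, was at 1234 ± 164 against 1272 ± 80.4 CPM, and Timm23 and Vdac1 had log2 fold changes of 0.22 and 0.15.

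Markers of other cells and of fibre type were read beside these values. The summed level of 10 slow fibre genes was 995 to 2127 CPM in placebo and 419 to 619 CPM with praliciguat, without overlap. In 9 of these 10 the fold change was below 0, and 8 were called by DESeq2 and 0 by edgeR (smallest adjusted p = 0.0777). Over the same libraries the summed TPM of the complex I members overlapped between the groups, at 27092 to 29890 TPM in placebo and 25046 to 27836 TPM with praliciguat. Endothelial markers had a fold change below 0 in 8 of 8 and summed to 634 to 761 CPM against 430 to 617 CPM, also without overlap. Of these 8, 4 were lower at an unadjusted p under 0.05, 2 had no overlap between groups and edgeR called 0 (smallest adjusted p = 0.352). DESeq2 called 1, Ptprb (adjusted p = 0.0465). The part of these markers in the complex I values was not tested. Adipocyte markers summed to 491 to 1370 CPM in placebo and 761 to 1834 CPM with praliciguat, with Ucp1 under the count filter. Sums for smooth muscle and pericyte (857 to 1315 against 711 to 1036 CPM), Schwann (153 to 354 against 95.2 to 212 CPM) and red blood cell markers (176 to 436 against 162 to 418 CPM) overlapped, and 4 skin genes reached at most 5.44 CPM. In whole muscle, fewer cells of a type and less RNA per cell cannot be told apart.

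Some members share sequence or a locus with other genes. In GENCODE, 12 of the 37 have a stretch of 200 or more bases at 95% identity or above with a transcript of another gene, and for 4 of these the other gene has a row: Tssk6 for Ndufa13, Mrpl47 for Ndufb5, Smim27 for Ndufb6 and BC002163 for Ndufs5. For the first 3 the other row was lower than the member, at 0.0377, 18.6 and 3.65 CPM. These 3 genes also overlap their members on the opposite strand, by 375, 616 and 350 bases. Their matches may thus be the same genomic bases rather than copies, and these 3 members are counted again in the overlaps that follow. A gene with a row overlaps 12 members on the opposite strand and 2 on the same strand. These overlaps are of whole gene spans, introns included. They ran from 4 bases (Tfpt with Ndufa3) to 14695 bases (Ino80dos with Ndufs1), and the overlapping genes from 0 CPM (Mir6900) to 136 CPM (Eef1b2). The library kit keeps strand, per the labels, but the sources used here do not give the strand setting of the counting, so values of these members are uncertain to that extent.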

How the data were processed

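RNA sequencing libraries of 8 samples were used. Tools listed in the submitters' processing notes are STAR 2.5.3a and RSEM 1.2.28, besides Trimmomatic and FastQC, with build mm10. The authors deposited, per the file headers, RSEM's expected counts per gene, TPM and effective lengths in bases (other values, used to describe length and, in an alternative, as an offset). Rounded expected counts went into edgeR 4.0.16 (under R 4.3.3), after filterByExpr and TMM scaling: robust quasi-likelihood F test, group as the sole term, Benjamini-Hochberg adjustment over 13569 genes, threshold 0.05. Intervals are 95% and use the test's degrees of freedom. Non-whole counts made up 0.765% to 0.930% of rows; 3 counts equal 0.0941 to 0.142 CPM. Libraries of a group differed beyond sampling noise (chi-square per degree of freedom 21.9 to 136). Alternatives were other scalings, filters, dispersion, length offset and title run as a block. Further ones were TPM with pseudocounts 1 and 0.1, DESeq2 1.42.0, limma 3.58.1 and each library left out. The test was checked on data simulated with changes larger than any member's, so that check does not cover changes of the members' size. Sequences came from RefSeq (GRCm38.p6) and GENCODE M21 (GRCm38), compared with BLAST 2.17.0 and Biopython 1.88. Members, gene lists and tests were chosen with earlier results of these data known. Genes were named by rule: core subunits, Ndufab1, Ndufa4, the 4 members of lowest p in each direction, the 3 highest and 3 lowest by TPM, and 2 to 4 of lowest p per other list, plus Ndufa4l2, Ppargc1a, Esrra, Tfam and Cs; further members named here were chosen after their values were seen. A member is not reported here by name or drawn as a named point; it stays in counts and medians.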

Additional observations from a re-analysis of the deposited data

How the results depend on the processing

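Over 23 settings, 0 of 827 values of 36 named genes passed an adjusted p of 0.05, and the lowest adjusted p was 0.142; 57 values changed sign. Calls of members stayed at 0 in both directions in every setting run. No paired analysis was possible because the labels give no shared replicate numbers; with the title run as a block, 31 members were below 0 and the median was -0.057. The number of members below 0 was 15 without the praliciguat libraries of the upper run, and 22 (without praliciguat replicate 3) to 35 (without praliciguat replicate 2) with one library left out. Members lower at an unadjusted p under 0.05 numbered 1 of 37 with library size only and with log2(TPM + 0.1) or log2(TPM + 1). With one library left out they numbered 0 to 1. The share of all genes lower at that threshold was 3.78% in the main fit and is not given here for these settings. The cause of the sign changes was not tested. With library size only the log2 fold change was -0.043 for Ndufa12, -0.036 for Ndufa6 and -0.011 for Cs. With either TPM pseudocount it was -0.026 for Ndufa12 and -0.017 for Ndufa6. Ndufv1 had 0.0032 with DESeq2, 0.0033 with DESeq2 size factors, 0.031 with voom quality weights and 0.0043 with no count filter, and Tfam 0.038 with quality weights. Without the praliciguat libraries of the upper run, values were 0.024 for Ndufa4, 0.031 for Ndufb4, 0.096 for Ndufb9, 0.074 for Ndufs3, -0.46 for Ndufs5, 0.017 for Ndufs7, 0.11 for Ndufv1, 0.037 for Ndufv2, 0.015 for Dmac2, 0.11 for Esrra, 0.0026 for Ppara, 0.036 for Ppargc1a and 0.055 for Tfam. With one library left out, ranges crossed 0 for Ndufa12 (-0.035 to 0.092), Ndufa6 (-0.043 to 0.086), Ndufb4 (-0.14 to 0.063), Ndufb9 (-0.10 to 0.029), Ndufs1 (-0.013 to 0.17), Ndufs3 (-0.068 to 0.030), Ndufs5 (-0.13 to 0.52), Ndufs7 (-0.14 to 0.018), Ndufv1 (-0.049 to 0.071), Cs (-0.034 to 0.10), Esrra (-0.12 to 0.025), Sdha (-0.013 to 0.15) and Tfam (-0.037 to 0.053). Ndufs5 had the fewest counts of the members, at 10.1 to 52.0 per library; the part of depth and of read assignment between Ndufs5 and BC002163 was not tested.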
